A study of Homo sapiens with 6 samples.

Results

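Mitotic kinases and spindle checkpoint genes, 10 in all, were followed in OVCAR3, an established line of human high-grade serous ovarian carcinoma (HGSOC) cells. They are the mitotic kinases AURKA, AURKB, PLK1, BUB1 and TTK, the checkpoint proteins BUB1B and MAD2L1, the checkpoint target CDC20, the survivin gene BIRC5 and the transcription factor gene FOXM1. The members were chosen by name, as the 10 of 47577 loci whose symbol equals one of these names, and each had a single locus of its own. The cells were exposed for 6 h to DMSO, the solvent (3 libraries), or to 200 nM THZ531, which binds CDK12 and CDK13 covalently and inhibits both kinases (3 libraries), and polyA RNA was sequenced. No other agent or allele separates the groups, and the design text of the series calls the libraries biological repeats. The sample titles name THZ531, whereas the protocol field of the same samples names the related compound THZ1 at that dose. The samples were grouped by their titles. All 6 libraries come from 1 cell line, so that other tumor cells are not represented.

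In mitosis, Aurora A and PLK1 build the spindle poles, while Aurora B sits at the inner centromere with survivin, INCENP and borealin (CDCA8) as the chromosomal passenger complex and removes faulty attachments of microtubules. Kinetochores that lack an attachment recruit TTK (also called MPS1) and BUB1, and these load MAD2 and BUBR1 (the BUB1B product) onto CDC20, so that the anaphase-promoting complex stays inactive until every chromosome is attached. FOXM1 acts with B-MYB and the MuvB core to switch on many of these genes in G2, and the DREAM complex keeps them silent in resting cells. CDK12 and CDK13 phosphorylate the carboxyl-terminal domain of RNA polymerase II during elongation.

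The libraries held 53054048 to 70986130 reads on loci. The values below are normalized read counts, that is the reads of a locus divided by the size factor of its library, with no correction for gene length. Every member was deeply covered, with 1539 to 19139 reads per library, and all 10 passed the minimum of 10 in at least 3 libraries. The comparison was made with limma, on log2(value + 1), over the 17568 loci that passed. Calls required a 1.5-fold difference or more (0.585 on the log2 scale) together with an unadjusted p no larger than 0.05. The label of the cells fits their markers. All 10 epithelial and ovarian markers examined, among them KRT7, KRT8, KRT18, EPCAM, WT1 and MUC16, passed the minimum, and their summed count was between 438130 and 448916 in DMSO and between 557753 and 570111 in THZ531. PAX8, a transcription factor of the Müllerian lineage, was called lower (log2 fold change -3.18) and the other 9 were not called. Among these 9, KRT8 was just under the fold threshold, with a log2 fold change of 0.584. Of 12 markers of fibroblasts, leukocytes and endothelium, 8 passed. CD3E was at 0 in every library and DCN and LUM did not exceed 3.19. Their summed count was 2229 to 2603 in DMSO and 3885 to 4133 in THZ531, most of it from COL1A1 and COL3A1. COL1A1, COL3A1 and VWF were called higher, COL3A1 with a log2 fold change of 0.60, near the threshold. The part of these markers in the results below was not tested.

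After 6 h of THZ531, the 10 genes did not move together. TTK rose by 1.597-fold, AURKA rose by 1.5-fold, at the threshold, and AURKB fell by 1.73-fold, whereas the other 7 members stayed under the fold threshold. Thus 3 of 10 members were called regulated, against 39.5% of all loci tested. Higher calls numbered 2, with 15.7% of all loci called higher, and 1 member was called lower, with 23.9% of all loci called lower. The median log2 fold change of the members was 0.03, and that of all loci was -0.01. Groups did not overlap for 8 of the 10 members, which is the case for 71.7% of all loci. With limma's Benjamini-Hochberg adjusted p of at most 0.05 and no fold threshold, 7 members passed, 4 higher and 3 lower, against 68.6% of all loci (34.6% higher and 34.1% lower). The read-count tests edgeR and DESeq2 and upper-quartile scaling each called 2 members, TTK and AURKB, against 39.1% of loci by edgeR (14.7% higher, 24.4% lower), 38.6% by DESeq2 (15.3% higher, 23.4% lower) and 39.4% with the upper quartile (14.9% higher, 24.5% lower). Limma with the replicate number as a block called 3 members, against 39.4% of loci (15.6% higher, 23.8% lower). In bulk RNA, a changed share of cells in mitosis and a changed amount of RNA per cell cannot be told apart.

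**Figure D1:**
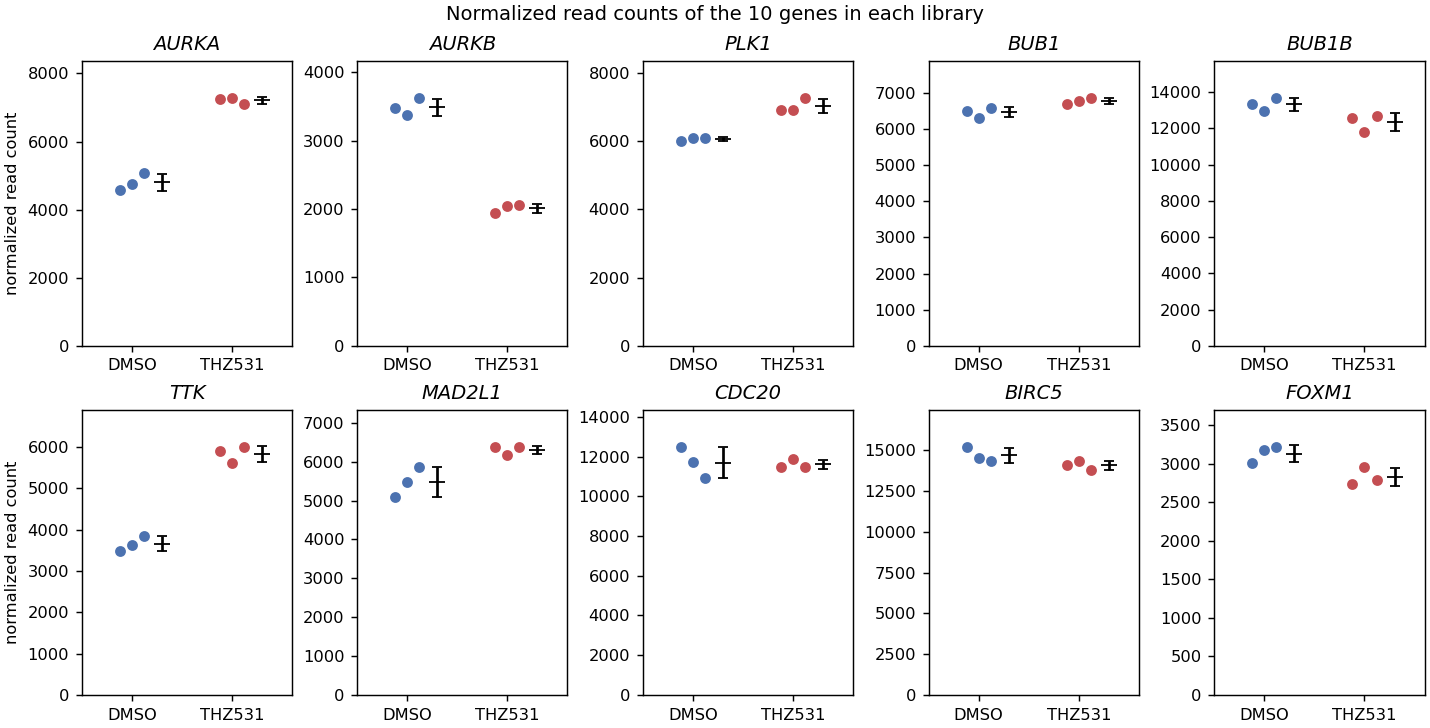
Normalized read counts (vertical axes, starting at 0) of the 10 genes in each of the 3 DMSO (blue) and 3 THZ531 (red) libraries, with black marks for the mean and SD (n = 3). AURKA and TTK lie higher and AURKB lower in every THZ531 library, while the groups of CDC20 and BIRC5 overlap.

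With the deposited scaling, the Aurora kinases moved in opposite directions. AURKA, the spindle pole kinase (chromosome 20, 56369389 to 56392228 on hg38, minus strand), had 4585, 4757 and 5076 normalized reads in the DMSO libraries and 7241, 7271 and 7101 in the THZ531 libraries. All THZ531 values lay above all DMSO values, and the means were 4806 ± 249 and 7205 ± 90.6 (SD, n = 3). The log2 fold change was 0.585 (standard error 0.04, 95% confidence interval from 0.49 to 0.68, limma adjusted p = 6.2e-09). AURKA therefore sat on the threshold itself, with a distance of 0.00018 on the log2 scale and a ratio of the means of 1.499. Its log2 fold change was 0.34 after scaling to an equal total and 0.09 after scaling to RPL34 (limma adjusted p = 0.38 with RPL34). AURKA was called under neither of these scalings. It was not called by edgeR (log2 fold change 0.56) or DESeq2 (0.584), nor without DMSO replicate 1, DMSO replicate 2, THZ531 replicate 1 or THZ531 replicate 2, with log2 fold changes from 0.55 to 0.62 when each library was left out in turn. AURKB, the centromere kinase (chromosome 17, 8204732 to 8210582, minus strand), had 3470, 3367 and 3618 normalized reads in DMSO and 1938, 2042 and 2055 in THZ531. Here every THZ531 library was below every DMSO library. The mean was 3485 ± 126 in DMSO and 2011 ± 63.7 in THZ531 (SD, n = 3). AURKB thus fell by 0.79 on the log2 scale (standard error 0.05, 95% confidence interval from -0.90 to -0.69, limma adjusted p = 8.6e-10). AURKB was the member farthest down among all loci, at the 20.5th percentile of the log2 fold changes.

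Among the kinases that start the checkpoint signal, TTK changed and BUB1 did not pass. TTK, which phosphorylates the kinetochore scaffold KNL1 (chromosome 6, 80004145 to 80042527, plus strand), had 3485, 3638 and 3849 normalized reads in DMSO and 5897, 5624 and 5994 in THZ531. The groups did not overlap, and the means were 3658 ± 183 and 5839 ± 192 (SD, n = 3). TTK rose by 0.68 on the log2 scale (standard error 0.05, limma adjusted p = 2.7e-09). At the 85.8th percentile it was the member farthest up. Its log2 fold change was 0.43 after scaling to an equal total and 0.18 after scaling to RPL34 (limma adjusted p = 0.088 with RPL34). TTK was called under neither of these scalings. BUB1, the kinase that binds KNL1 and marks the centromere for the passenger complex (chromosome 2, 110637528 to 110678063, minus strand), had 6492, 6305 and 6578 normalized reads in DMSO and 6688, 6760 and 6849 in THZ531. The values did not overlap but lay close. The log2 fold change of BUB1 was 0.07, with a 95% confidence interval from -0.01 to 0.15 (limma adjusted p = 0.13), and it was below 0 after scaling to an equal total (-0.18) or to RPL34 (-0.43). PLK1, the polo-like kinase of mitotic entry and spindle poles (chromosome 16, 23677656 to 23690367, plus strand), had 6005, 6078 and 6097 normalized reads in DMSO and 6913, 6911 and 7258 in THZ531. All THZ531 values exceeded all DMSO values, but by 1.16-fold, a log2 fold change of 0.21 (standard error 0.04, limma adjusted p = 1.2e-04) that passed the adjusted p and not the fold threshold, and that turned to -0.03 after scaling to an equal total and to -0.28 after scaling to RPL34.

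MAD2L1, BUB1B and CDC20 itself stayed under the fold threshold. MAD2L1, which encodes MAD2 (chromosome 4, 120055623 to 120066848, minus strand), had 5085, 5481 and 5856 normalized reads in DMSO and 6369, 6172 and 6365 in THZ531. The DMSO values were the more scattered, and the groups did not overlap. Its log2 fold change was 0.21 (standard error 0.05, limma adjusted p = 0.0013) with the deposited scaling, but -0.04 after scaling to an equal total and -0.29 after scaling to RPL34. BUB1B, which encodes BUBR1 (chromosome 15, 40161037 to 40221177, plus strand), had 13326, 12962 and 13658 normalized reads in DMSO and 12566, 11793 and 12667 in THZ531. It was lower in every THZ531 library, with a log2 fold change of -0.11 (standard error 0.04, limma adjusted p = 0.018), under the fold threshold. CDC20, the activator of the anaphase-promoting complex (chromosome 1, 43358928 to 43363203, plus strand), had 12464, 11704 and 10912 normalized reads in DMSO and 11490, 11851 and 11470 in THZ531. The DMSO values enclosed all THZ531 values. Its log2 fold change was -0.01 with a 95% confidence interval from -0.10 to 0.08 (limma adjusted p = 0.86), and without DMSO replicate 1 it was 0.04.

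Survivin and FOXM1 were likewise not called. BIRC5, whose product survivin anchors Aurora B at the centromere and belongs to the inhibitor of apoptosis family (chromosome 17, 78214243 to 78225635, plus strand), had 15194, 14563 and 14343 normalized reads in DMSO and 14111, 14368 and 13827 in THZ531. The groups overlapped, and the log2 fold change of -0.06 had a 95% confidence interval from -0.14 to 0.02 (limma adjusted p = 0.15). FOXM1, the transcription factor of G2 genes (chromosome 12, 2857680 to 2877174, minus strand), had 3011, 3176 and 3215 normalized reads in DMSO and 2736, 2959 and 2794 in THZ531. Every THZ531 value was lower, with means of 3134 ± 108 and 2830 ± 116 (SD, n = 3) and a log2 fold change of -0.15 (standard error 0.05, limma adjusted p = 0.014), under the fold threshold. The genes whose profile over the 6 libraries was closest to that of FOXM1 were PBRM1, DIAPH3 and NPRL3, with Euclidean distances of 0.041, 0.057 and 0.063 between log2 values centred on their mean. Their log2 fold changes were -0.15, -0.16 and -0.19.

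How the libraries are scaled moves every member by the same amount. The sum of the deposited values was 55389676 to 56639224 in DMSO and 65875609 to 66820371 in THZ531. Scaling each library to an equal total put the median log2 fold change of all loci at -0.25 and that of the members at -0.21. Scaling to RPL34, the reference transcript of the qPCR assays in the study, put them at -0.50 and -0.46. On that equal total, AURKB alone was called (1 lower, 0 higher, log2 fold change -1.04), against 41.3% of loci (9.38% called higher and 32% called lower). TTK and AURKA then had log2 fold changes of 0.43 and 0.34. With RPL34, AURKB (-1.29), FOXM1 (-0.64) and BUB1B (-0.60) were called lower and none was called higher, against 49% of loci (6.14% called higher and 42.8% called lower), and TTK and AURKA were at 0.18 and 0.09. Relative to the median of all loci, 5 members were above and 5 below. A scaling moves the median along with the members, so this split could not differ between scalings and tests nothing.

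**Figure D2:**
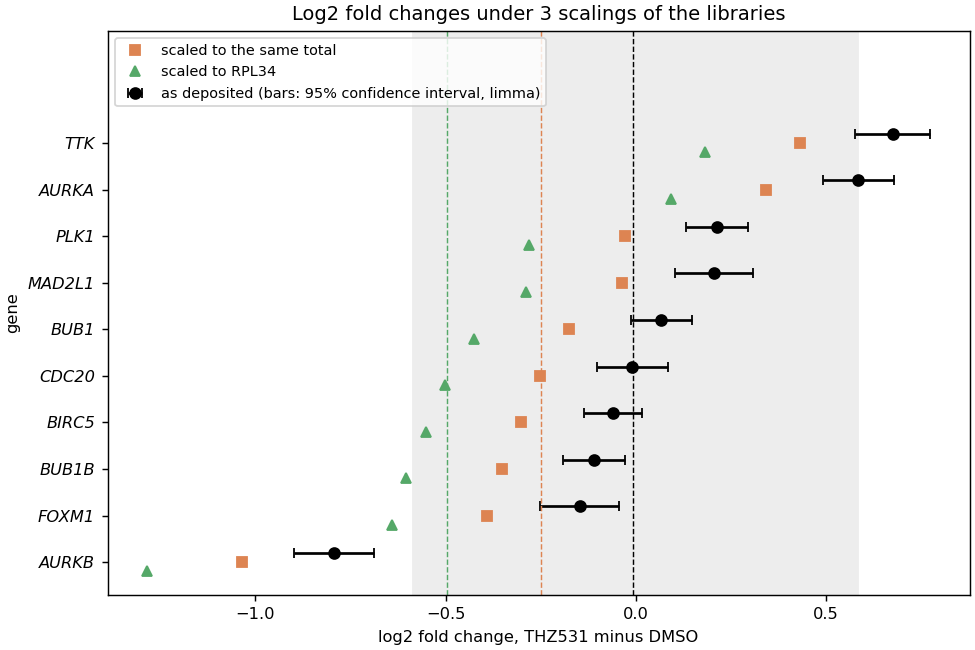
Log2 fold changes (horizontal axis, THZ531 minus DMSO) of the 10 genes as deposited (black, bars for the 95% confidence interval from limma), scaled to an equal total per library (orange) and to RPL34 (green). Dashed lines mark the median of all 17568 loci under each scaling and the grey band holds changes under 1.5-fold. AURKB lies left of its dashed line and AURKA and TTK right of theirs. A scaling moves genes and dashed lines alike, so these sides could not differ between scalings. PLK1, MAD2L1 and BUB1 lie above 0 as deposited and below 0 with both other scalings.

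Ratios of member pairs within a library do not depend on this choice. For AURKA over AURKB the log2 ratio was 0.40, 0.50 and 0.49 in the DMSO libraries and 1.90, 1.83 and 1.79 in the THZ531 libraries. In linear terms the counts of AURKA were 1.38 times those of AURKB in DMSO and 3.58 times in THZ531, a 2.60-fold shift (difference 1.38 on the log2 scale, standard error 0.04). For AURKB over BIRC5, partners in the passenger complex, the log2 ratio was -2.13, -2.11 and -1.99 in DMSO and -2.86, -2.81 and -2.75 in THZ531, a difference of -0.73 (standard error 0.06). FOXM1 over PLK1 shifted by -0.36 (standard error 0.05), from -0.95 ± 0.04 to -1.31 ± 0.08 (SD, n = 3). BUB1 over BUB1B shifted by 0.18 (standard error 0.03), from -1.04 ± 0.01 to -0.87 ± 0.06 (SD, n = 3). In these 4 pairs the groups did not overlap, and each had p = 0.1 in a two-sided exact permutation test, the smallest p that 3 libraries against 3 allow, and 0.125 after Benjamini-Hochberg adjustment over the 5 pairs. MAD2L1 over CDC20 had a difference of 0.21 (standard error 0.12), and its groups overlapped (exact permutation p = 0.2).

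**Figure D3:**
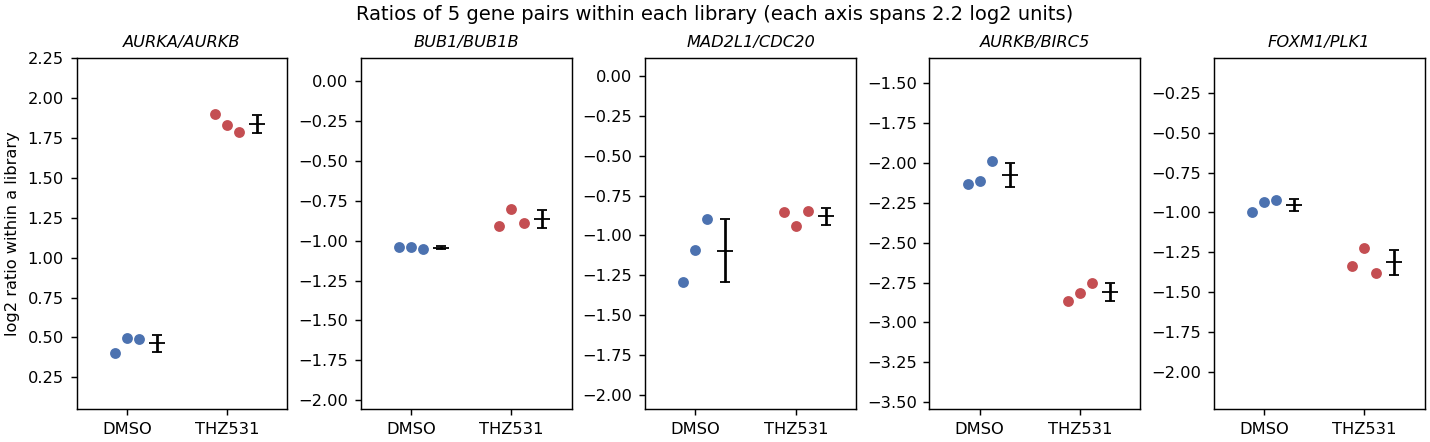
Log2 ratio of the normalized read counts of 2 genes within each library (vertical axes, each spanning the same number of log2 units) for 5 pairs, with DMSO in blue, THZ531 in red and black marks for the mean and SD (n = 3). AURKA/AURKB moved from a mean of 0.46 to 1.84, the widest shift of these 5 pairs, and MAD2L1/CDC20 overlapped between the groups.

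To compare levels between genes, the normalized counts were divided by the length of the MANE transcript, the reference isoform of each gene. The same length was used in both groups. Whether the cells express that isoform was not tested, and the paper reports changed last exons after THZ531, so the order is approximate. Per kb, CDC20 had the highest count in DMSO with 7090 ± 471, followed by BIRC5 with 5710 ± 172 and BUB1B with 3630 ± 94.8 (SD, n = 3). PLK1 (2810 ± 22.4) and AURKB (2800 ± 102) came next and overlapped each other. AURKA had 2360 ± 123, BUB1 1720 ± 37.1, TTK 1230 ± 61.6, MAD2L1 1050 ± 73.7 and FOXM1 882 ± 30.4 (SD, n = 3), each without overlap with its neighbours. In THZ531 the order changed in the middle. AURKA took the third place with 3540 ± 44.6 per kb, above BUB1B (3360 ± 130) and PLK1 (3250 ± 92.5), which overlapped, and AURKB took the eighth place with 1620 ± 51.2 (SD, n = 3), below TTK and BUB1. CDC20 and BIRC5 remained at the top and FOXM1 at the bottom.

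**Figure D4:**
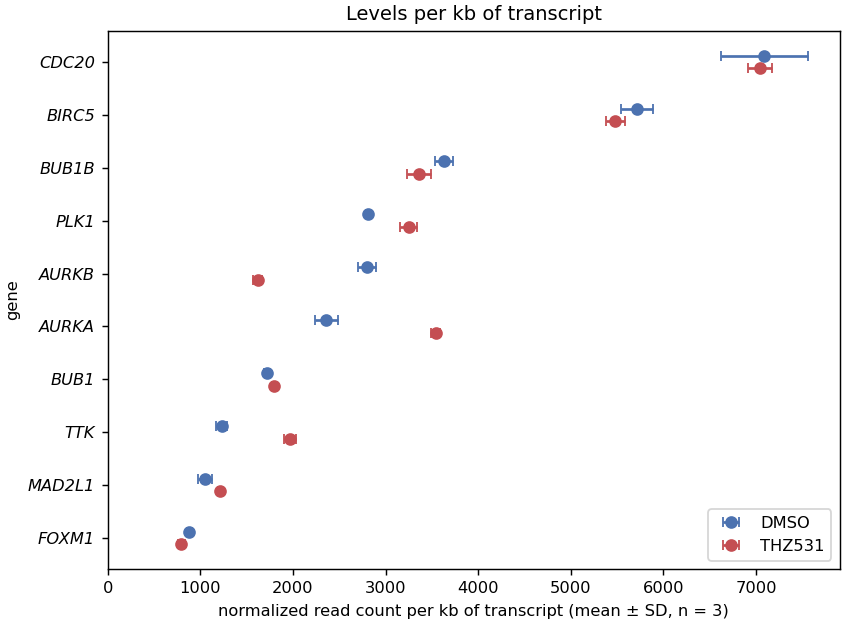
Mean normalized read count per kb of MANE transcript (horizontal axis, starting at 0) for the 10 genes in DMSO (blue) and THZ531 (red), with bars for the SD (n = 3). AURKA passes from 2360 to 3540 and AURKB from 2800 to 1620, while CDC20 lies at 7090 and 7040.

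The spread between replicates was small. The coefficient of variation of a member was between 0.8% and 7.04% in DMSO and between 1.19% and 4.09% in THZ531, and it was lower in THZ531 for 7 of the 10 members. MAD2L1 and CDC20 were the most variable in DMSO, at 7.04% and 6.64%. The members are genes of short to moderate length. They span 4.3 kb (CDC20) to 60.1 kb (BUB1B), and their longest intron runs from 949 nucleotides in CDC20 to 10902 in BUB1B, whereas the median span of the 15278 tested loci with a symbol was 28.0 kb (28.3 kb for those called lower and 28.1 kb for those called higher). AURKB, which fell, spans 5.9 kb, and AURKA and TTK, which rose, span 22.8 and 38.4 kb. Across the 10 genes the rank correlation of span with log2 fold change was 0.25, a description over genes that share the same libraries.

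Promoter sequences of RefSeq (GRCh38.p14, 250 bases before to 50 after the start) were matched by symbol to 6 members, PLK1, BUB1, BUB1B, MAD2L1, CDC20 and AURKB. No window was matched for AURKA, TTK, BIRC5 and FOXM1. Promoters of G2 genes are known for the CHR, the cell cycle genes homology region that MuvB complexes bind. It was searched as TTTGAA or TTCGAA on both strands. These letters were in the windows of 5 of the 6 members and in those of 19.5% of the 27305 genes with a window. In the list of FOXM1 and DREAM target genes described below, 20 of the 22 with a window held them. AURKB was the member without a match. Its windows end at bases 8210475 and 8210499, inside its locus, whose 5′ end is at 8210582. Bases at and before that 5′ end were thus not searched. The PLK1 window likewise lies wholly inside its locus. In the windows searched, the 5 members with a match had log2 fold changes from -0.11 to 0.21, and AURKB had -0.79. This describes 6 genes, with no test. The 60 bases around the match nearest to the start are shown for these 5, 5′ to 3′ on the strand of the gene, to show where the letters lie, with the match in capitals.
PLK1 (chr16:23678833-23678892, plus strand): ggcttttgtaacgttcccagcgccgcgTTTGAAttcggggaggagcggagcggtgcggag
BUB1 (chr2:110678030-110678089, minus strand): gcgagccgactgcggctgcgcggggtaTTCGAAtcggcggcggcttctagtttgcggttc
BUB1B (chr15:40161019-40161078, plus strand): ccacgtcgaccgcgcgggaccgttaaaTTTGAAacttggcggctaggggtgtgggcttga
MAD2L1 (chr4:120066799-120066858, minus strand): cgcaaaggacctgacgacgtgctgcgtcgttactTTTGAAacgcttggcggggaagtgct
CDC20 (chr1:43358889-43358948, plus strand): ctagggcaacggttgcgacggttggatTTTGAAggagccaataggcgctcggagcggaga

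In these windows the match begins at base -29 from the start in PLK1, -23 in BUB1B and -65 in CDC20, which holds another match at base -178, and at base 2 of the transcript in BUB1 and base 25 in MAD2L1. The whole AURKB window is shown because it holds no CHR letters. Its capitals mark ATTGG, the reverse complement of the CCAAT box that the factor NF-Y binds. The match begins at base -153 from the start used for this window. In a further AURKB window of RefSeq, with another start, it begins at base -129. Both starts lie inside the locus.
AURKB (chr17:8210176-8210475, minus strand): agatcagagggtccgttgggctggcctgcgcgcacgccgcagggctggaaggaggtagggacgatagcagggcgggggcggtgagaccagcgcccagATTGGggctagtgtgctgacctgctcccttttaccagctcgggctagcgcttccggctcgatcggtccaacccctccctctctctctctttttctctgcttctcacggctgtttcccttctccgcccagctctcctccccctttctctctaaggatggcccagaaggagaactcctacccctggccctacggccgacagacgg

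The letters CCAAT, on either strand, were in 5 of the 6 windows (all but BUB1B) and in those of 39.7% of all genes. Of the FOXM1 and DREAM target genes with a window, 20 of 22 held them. The E2F site was searched on both strands as TTCGCGC, with the variant TTGGCGC and further with the variant TTCCCGC, and it was in the window of MAD2L1 (at base -105) and in those of 13.1% of all genes. The forkhead letters TGTTTAC, on either strand, were in none of the 6 and in 4.19% of all genes. No match overlapped a match of another motif in these 6 windows. A match is a description of the letters and not a binding site.

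Reads of other loci lie close to several members. Within 5 kb of a member, a distance chosen after the values were seen, the file lists 16 other loci, 4 of which overlap a member and 9 of which passed the minimum. AURKB, BUB1B, TTK and MAD2L1 have none. FOXM1 overlaps RHNO1, on the opposite strand at its 5′ end, by 910 bases, and ITFG2, on the opposite strand at its 3′ end, by 2112 bases. RHNO1, which acts with the 9-1-1 checkpoint clamp, fell from 2269, 2404 and 2438 normalized reads in DMSO to 1057, 1108 and 1106 in THZ531 (log2 fold change -1.12, limma adjusted p = 7.2e-11). ITFG2 fell from 890, 740 and 821 to 481, 427 and 374 (log2 fold change -0.94, limma adjusted p = 6.4e-07). FOXM1 itself had -0.15, and the difference from its neighbours was not tested. The library kit keeps the strand, but whether the reads were counted by strand is not given in the sources used here, so reads of the shared stretches could be counted on either gene.

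Next to BUB1, 184 bases beyond its 5′ end, lies a locus without a symbol (chromosome 2, 110678248 to 110681312). It had 7.94, 2.78 and 7.98 normalized reads in DMSO and 65.5, 51.2 and 47.8 in THZ531. All THZ531 values exceeded all DMSO values. All 3 DMSO values were under the minimum of 10, so that the locus passed only through the THZ531 libraries, where it is high, and its log2 fold change of 3.04 (2.005 to 3.249 over the alternatives) is given as a description with no test. The other 4 loci without a symbol near BUB1 were at 0 in every library. CSTF1, on the opposite strand 150 bases from the 5′ end of AURKA, had 1895, 1915 and 1991 normalized reads in DMSO and 1578, 1624 and 1547 in THZ531, a log2 fold change of -0.29 (limma adjusted p = 1.7e-04), under the fold threshold and opposite in sign to AURKA. GENCODE names pseudogenes of AURKA, AURKB, BUB1, CDC20 and MAD2L1. None has a locus of that name in the file, and how reads that match several places were counted is not given in the sources used here.

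The other genes of the pathway were read from 7 lists with 115 genes. Of these, 111 passed the minimum on a locus of their own, and 10 were called higher and 26 lower (32.4%, against 39.5% of all loci). Their median log2 fold change was -0.01, as for all loci. By direction, 15.7% of all loci were called higher and 23.9% lower. On the equal total 5 of the 111 were called higher and 36 lower, against 9.38% and 32% of all loci, and with RPL34 0 and 50, against 6.14% and 42.8%. In the list of checkpoint and kinetochore genes 7 of 19 fell and 1 rose (42.1% called). KNTC1, the ROD subunit that brings dynein and MAD proteins to the kinetochore, fell from 1069, 1095 and 1088 normalized reads to 491, 485 and 448 (log2 fold change -1.19). DSN1 (-1.06) and MIS12 (-0.99), both subunits of the MIS12 complex at the base of the kinetochore, fell as well, and SGO2, which protects centromeric cohesin, rose (log2 fold change 0.86). The 11 genes of this list that were not called had log2 fold changes from -0.37 to 0.58. The latter, close to the threshold, is BUB3, the partner of BUB1 and BUBR1, which is named for that role after its values were seen.

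Among 12 tested partners and further family members of the Aurora and Polo kinases 1 rose and 2 fell (25% called, against 39.5% of all loci). TPX2, the activator of Aurora A on spindle microtubules, rose from 13496, 12675 and 13510 normalized reads to 20346, 20313 and 20151 (log2 fold change 0.62). This value is close to that of AURKA. HASPIN, the histone kinase that places the passenger complex at the centromere, fell from 655, 685 and 577 to 333, 330 and 294, and PLK3 fell too (log2 fold change -1.34). The passenger subunits INCENP and CDCA8, also named after their values were seen, had log2 fold changes of 0.56 and -0.50, both under the fold threshold. In the anaphase-promoting complex list 1 of 19 rose and 2 fell (15.8% called, against 39.5% of all loci). UBE2C, its ubiquitin-conjugating enzyme, rose from 7022, 6690 and 6586 to 12164, 11947 and 11676 (log2 fold change 0.82), while ESPL1, which encodes separase, fell (-1.03), as did the subunit gene ANAPC7 (-0.76). ANAPC11 is counted together with NPB as a single locus and was left out.

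Of 18 genes for mitotic entry 3 rose and 5 fell (44.4% called, against 39.5% of all loci, 15.7% higher and 23.9% lower). CCNB2, cyclin B2, rose from 6508, 6630 and 6697 normalized reads to 12258, 12346 and 11966 (log2 fold change 0.88), and CDC25A, a phosphatase that activates CDK1, rose by 0.91 on the log2 scale. MASTL, the Greatwall kinase that restrains PP2A in mitosis, fell from 3817, 3686 and 4187 to 2146, 1716 and 2088 (log2 fold change -0.98), and NEK9, a kinase of spindle assembly, fell (-1.17). In the list named for FOXM1, B-MYB and the DREAM complex, which also holds RB1 and CDKN1A, 1 of 14 rose and 4 fell (35.7% called). E2F5, a DREAM subunit, fell from 526, 567 and 504 to 17.6, 14.8 and 25.0 (log2 fold change -4.76), and LIN52 (-1.13) and RB1 (-0.86) fell, while CDKN1A, the CDK inhibitor p21, rose (0.95). Of 23 target genes of FOXM1 and DREAM 3 rose and 4 fell (30.4% called), with a median of 0.02. CKS2, a small subunit of CDK1, rose (log2 fold change 0.74), and CDCA3 (-0.84), the kinesin KIF14 (-0.79) and the ubiquitin-conjugating enzyme UBE2T (-0.76) fell. Of 6 tested genes around the inhibitor of apoptosis family, XIAP (-1.10) and HTRA2 (-0.90), a protease that cleaves these inhibitors, fell and none rose (33.3% called). With RPL34, SGO2, TPX2, UBE2C, CCNB2, CDC25A, CDKN1A and CKS2 were no longer called, and TPX2, UBE2C and CKS2 were not called on the equal total either. All kept their sign.

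**Figure D5:**
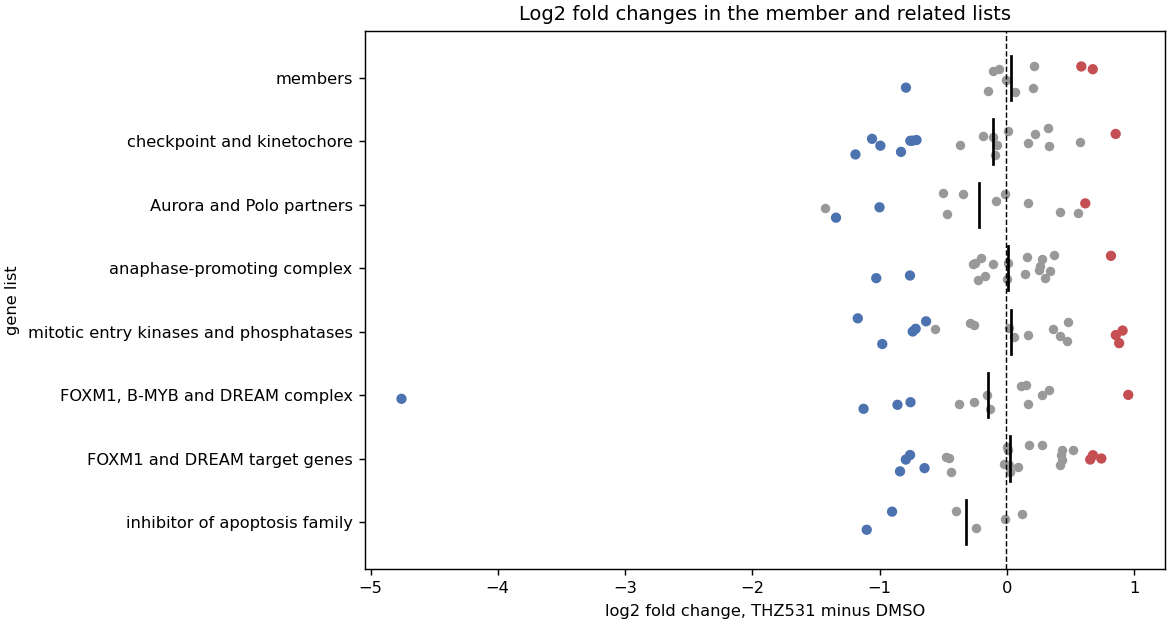
Log2 fold changes (horizontal axis, THZ531 minus DMSO, deposited scaling) of the tested genes in the member list and 7 related lists (rows), with genes called higher in red, genes called lower in blue, others in grey, a black bar for the median of each list and a dashed line for the median of all loci. List medians lie between -0.32 and 0.03, and E2F5 lies apart at -4.76. After scaling to an equal total the list medians lie between -0.56 and -0.21.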

How the data were processed

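PolyA RNA was sequenced from 3 DMSO and 3 THZ531 libraries of OVCAR3. Per the study's methods and processing notes, the authors mapped paired-end reads to hg38 with STAR (2.7.5a in the processing notes), counted them on FAST DB genes with featureCounts and deposited a signal per locus, the read count divided by the DESeq2 size factor of the library. All values (100% per library) fell on whole steps, within 0.01 of a step, so that the reads could be recovered. Depth was 53054048 to 70986130 reads on loci per library.

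The tests used limma 3.58.1 (trended variance) in R 4.3.3 on log2(value + 1), without covariates, over 17568 loci, with Benjamini-Hochberg adjustment. On the recovered reads, edgeR 4.0.16 called 6863 loci and DESeq2 1.42.0 called 6788. The fits were checked on simulated counts. There a small share of loci changed, equally up and down and by more than the fold threshold. That check does not bear on the scaling of the libraries or on calls near the threshold. Gene pairs used exact permutation tests in scipy 1.17.1. Transcripts came from GENCODE v44. The members and lists were chosen with earlier results of these data known. Named genes were the members, the 4 largest called changes of each list and the 3 profiles nearest to FOXM1. BUB3, INCENP, CDCA8 and the loci near members (RHNO1, ITFG2, CSTF1 and a locus without a symbol) fall outside this rule and were named after their values were seen, and PAX8, COL1A1, COL3A1, VWF and other markers are named from the marker lists. Samples with the same replicate number did not deviate together (r from -0.039 to 0.019), so replicates were not paired. Other pseudocounts, minima, scalings, thresholds and tools, a replicate block and leaving out each library were tried.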

Additional observations from a re-analysis of the deposited data

How the results depend on the processing

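The count of regulated members was 3 as reported, 1 on an equal total per library and 0 at a fold change of 2, where limma's unadjusted p of at most 0.05 alone passed 7 members and edgeR's largest change was -0.81. At a fold change of 2 the regulated loci numbered 4042 against 6948 and the regulated genes of the related lists 9 against 36. Under the other settings, which were the pseudocounts, minima, RPL34 and upper-quartile scaling, the adjusted p, limma without a trend, edgeR and DESeq2, the members called numbered 2 or 3 and the loci called 5541 to 8602. Over all loci the deposited scaling gave 2751 higher and 4197 lower calls, the equal total 1647 and 5615, and RPL34 1078 and 7524. Leaving out single libraries, 2 to 3 members, 6714 to 6910 loci and 36 to 38 related genes were called.

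Directions turned for members near 0. On the equal total the log2 fold changes of PLK1, BUB1 and MAD2L1 were -0.029, -0.176 and -0.037, and with RPL34 -0.28, -0.426 and -0.288. That of CDC20 was between -0.058 and 0.038 when single libraries were left out, and above 0 only without DMSO replicate 1. These scalings subtract the same amount from every gene. The replicate block called the same number of members (3) and of related genes (36), and 6918 loci. In the pairs of genes the block allows no p below 0.25, and the differences kept their sign under every alternative run. With the block the sign could not turn, because it leaves the difference of the means unchanged. Depth did not limit the members, whose 95% confidence intervals reached at most 0.105 on the log2 scale to either side.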
